A study of Mus musculus with 4 samples.

Results

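The genes of the DNA replication machinery were examined in motor neuron (MN) cultures with and without Patz1. The set held 51 genes, chosen by symbol, of the 23420 gene symbols in the count files, and all 51 were found and passed the low-count filter that left 14269 genes for testing. They were grouped by role into licensing (8 genes), helicase (21), polymerase (9), clamp (10) and nucleotide supply (3). RNA-seq was available from 2 WT and 2 Patz1 -/- (KO) libraries of cervical MNs, all differentiated from mouse embryonic stem cells of the E14 line by way of embryoid bodies patterned with retinoic acid and smoothened agonist. The KO cells had been made with CRISPR and a guide against Patz1, a zinc finger protein that binds G-rich DNA, and several KO clones existed, of which the labels do not name the one behind each library. The sample titles name ESCs, while their source and cell type name MNs. The study's text describes its replicates as biological and defines these as independent differentiations. The p values below measure only the spread between these 4 libraries. A clone difference, or a difference in differentiation that goes with the group, cannot be told apart from the loss of Patz1 with these groups.

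Replication begins with licensing, in which the origin recognition complex (ORC), Cdc6 and Cdt1 load the ring of Mcm2 to Mcm7 onto DNA before S phase. Kinases then convert the ring, with Cdc45 and the GINS complex, into the active helicase, and the polymerases follow with the Pcna clamp and its loader while ribonucleotide reductase and thymidylate synthase supply deoxynucleotides. Many of these genes are known targets of the E2F factors, which are held back by Rb-family proteins in cells outside the cycle. Cultures of this kind hold cycling progenitors beside post-mitotic MNs, and a post-mitotic neuron no longer replicates its DNA.

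The promoters of a few members are shown because many members held a feature that their choice did not use, a match to the E2F motif. Sequences of 220 bases, from 170 before to 50 after the annotated RefSeq start (GRCm38.p6), are written 5′ to 3′ on the strand of the gene, with matches to the motif in capitals. They cover 5 of the 6 subunits of the MCM ring (no promoter was listed for Mcm4), a pair of licensing factors, a polymerase subunit, a clamp loader subunit and Tyms, the member with the largest fall.
Mcm2 (chr6:88898731-88898950, - strand): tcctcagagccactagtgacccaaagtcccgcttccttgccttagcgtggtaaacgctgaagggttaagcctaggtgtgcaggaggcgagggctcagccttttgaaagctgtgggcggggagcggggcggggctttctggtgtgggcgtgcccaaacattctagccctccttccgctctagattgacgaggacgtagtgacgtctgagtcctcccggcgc
Mcm3 (chr1:20820263-20820482, - strand): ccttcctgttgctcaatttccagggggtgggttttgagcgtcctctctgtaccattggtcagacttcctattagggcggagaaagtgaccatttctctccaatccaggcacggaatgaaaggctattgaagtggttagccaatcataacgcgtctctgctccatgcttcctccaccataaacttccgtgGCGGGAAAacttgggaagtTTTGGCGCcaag
Mcm5 (chr8:75109339-75109558, + strand): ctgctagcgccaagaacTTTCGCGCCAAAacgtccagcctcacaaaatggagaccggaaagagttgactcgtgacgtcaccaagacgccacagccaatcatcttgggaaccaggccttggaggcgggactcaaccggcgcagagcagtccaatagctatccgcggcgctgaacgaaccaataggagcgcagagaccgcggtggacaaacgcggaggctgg
Mcm6 (chr1:128359656-128359875, - strand): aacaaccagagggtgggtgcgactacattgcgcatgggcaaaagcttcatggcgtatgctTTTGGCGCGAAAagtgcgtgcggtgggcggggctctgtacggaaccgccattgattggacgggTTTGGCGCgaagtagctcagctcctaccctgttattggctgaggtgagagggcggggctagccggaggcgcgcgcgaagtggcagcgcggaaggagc
Mcm7 (chr5:138171834-138172053, - strand): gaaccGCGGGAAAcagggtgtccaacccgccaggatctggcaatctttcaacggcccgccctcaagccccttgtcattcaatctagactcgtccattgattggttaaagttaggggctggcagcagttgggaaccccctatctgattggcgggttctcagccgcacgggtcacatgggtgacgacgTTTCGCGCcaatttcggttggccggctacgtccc
Cdc6 (chr11:98907981-98908200, + strand): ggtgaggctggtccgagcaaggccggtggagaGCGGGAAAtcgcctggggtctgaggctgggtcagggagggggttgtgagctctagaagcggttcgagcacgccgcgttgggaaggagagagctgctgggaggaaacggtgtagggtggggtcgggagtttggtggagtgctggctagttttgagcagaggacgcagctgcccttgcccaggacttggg
Cdt1 (chr8:122567845-122568064, + strand): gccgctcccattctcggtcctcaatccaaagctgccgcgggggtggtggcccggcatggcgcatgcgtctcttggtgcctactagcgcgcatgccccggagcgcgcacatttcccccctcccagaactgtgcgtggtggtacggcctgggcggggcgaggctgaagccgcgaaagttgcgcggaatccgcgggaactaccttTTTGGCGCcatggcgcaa
Pola1 (chrX:93632106-93632325, - strand): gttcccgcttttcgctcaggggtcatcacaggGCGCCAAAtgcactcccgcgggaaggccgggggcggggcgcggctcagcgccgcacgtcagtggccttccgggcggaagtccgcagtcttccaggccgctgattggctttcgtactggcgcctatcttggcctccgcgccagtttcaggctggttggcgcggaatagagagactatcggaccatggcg
Rfc3 (chr5:151651159-151651378, - strand): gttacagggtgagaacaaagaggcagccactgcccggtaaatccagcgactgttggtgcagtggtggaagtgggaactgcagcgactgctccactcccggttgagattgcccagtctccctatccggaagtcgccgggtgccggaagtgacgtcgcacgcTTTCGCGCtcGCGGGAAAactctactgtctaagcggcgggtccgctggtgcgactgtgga
Tyms (chr5:30073576-30073795, - strand): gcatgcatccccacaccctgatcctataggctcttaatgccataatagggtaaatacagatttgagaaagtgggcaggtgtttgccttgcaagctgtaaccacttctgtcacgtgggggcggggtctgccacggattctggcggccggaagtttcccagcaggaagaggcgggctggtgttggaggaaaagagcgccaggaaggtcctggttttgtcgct

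The motif was searched on both strands of promoters of 300 bases, from 250 before to 50 after the start, as TTTCCCGC, TTTGGCGC, TTTCGCGC or TTTGCCGC. Promoters were listed for 43 of the 51 members, and 17 of them (39.5%) held at least 1 match, against 704 of 27025 genes (2.6%) with a listed promoter and 484 of 10401 tested genes (4.65%). The long capital runs of Mcm5 and Mcm6 are 2 matches on opposite strands that overlap. The 17 members were Cdc6, Cdt1, Orc1 and Orc3 of the licensing group, Mcm3, Mcm5, Mcm6, Mcm7, Mcm8, Clspn and Gins3 of the helicase group, Pola1, Pold1, Pold3 and Pole2 of the polymerases, and Lig1 and Rfc3 of the clamp group. A pair of other motifs was counted in the same windows. The G-rich string GGGAGGG, of the kind PATZ1 and MAZ recognise, was in 9 members (20.9%), in 23.8% of all genes and in 33.0% of tested genes. The CCAAT box was in 26 members (60.5%), in 41.1% of all genes and in 43.2% of tested genes. A match is a string of letters and not a measured binding site, and a window without one says nothing of the factor.

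**Figure D1:**
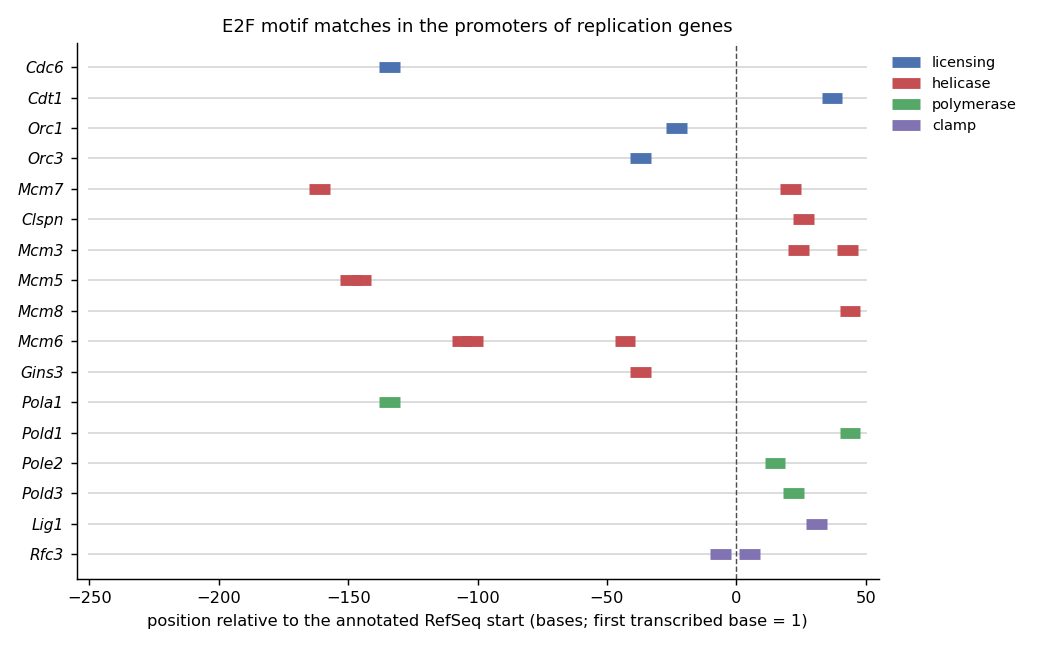
Positions of E2F motif matches relative to the annotated RefSeq start in bases (x axis) for the 17 members that held one (rows, coloured by role). Each grey line spans the 300 bases searched, and most matches lie within 50 bases of the start, while those of Cdc6, Pola1 and Mcm5, and some of Mcm6 and Mcm7, lie over 100 bases before it.

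Total counts went from 14769104 to 23881522 per library, and the lowest count of any member in any library was 129. Counts of Patz1 itself were 1363 and 1499 in WT against 1154 and 714 in KO, or 92.9 ± 1.96 against 45.1 ± 3.56 CPM (SD, n = 2), a log2 fold change of −1.04 (SE 0.0951, adjusted p = 1.10e-07). Its RNA remained at 48.6% of the WT level. The study's text reports that PATZ1 protein was lost in the KO lines by western blot of ESCs. The ribosomal RNA precursor Rn45s took 1.64% to 2.54% of the counts, with overlapping groups. Here and below, CPM are counts scaled to a common library size with TMM, fold changes are KO over WT on the log2 scale, and adjusted p values are those of the quasi-likelihood test in edgeR, corrected over all 14269 genes by the method of Benjamini and Hochberg.

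The replication genes were lower in KO cultures as a group. Of the 51 members, 44 passed the test as lower, none passed as higher and 7 did not pass (Orc4, Orc5, Cdc7, Gins4, Mcm2, Rpa3 and Pold2), where 23.8% of all genes tested were called lower and 24.1% higher. At an unadjusted p below 0.05, the number higher was also 0, and DESeq2's Wald test called 38 members lower and 0 higher. In 47 members both KO libraries lay below both WT libraries, a pattern that 37.2% of all genes tested showed. The median log2 fold change was −0.64 over the members and −0.0014 over all genes tested. A log2 fold change of −0.5 or less was found in 36 members and in 17.8% of all genes, and one of −1 or less in 10 members and in 7.79% of all genes. Summed over the members, the WT libraries held 4002 and 4097 CPM and the KO libraries 2514 and 2540 CPM, which is 62.4% of WT. In bulk samples, fewer dividing cells and less RNA per cell cannot be told apart.

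**Figure D2:**
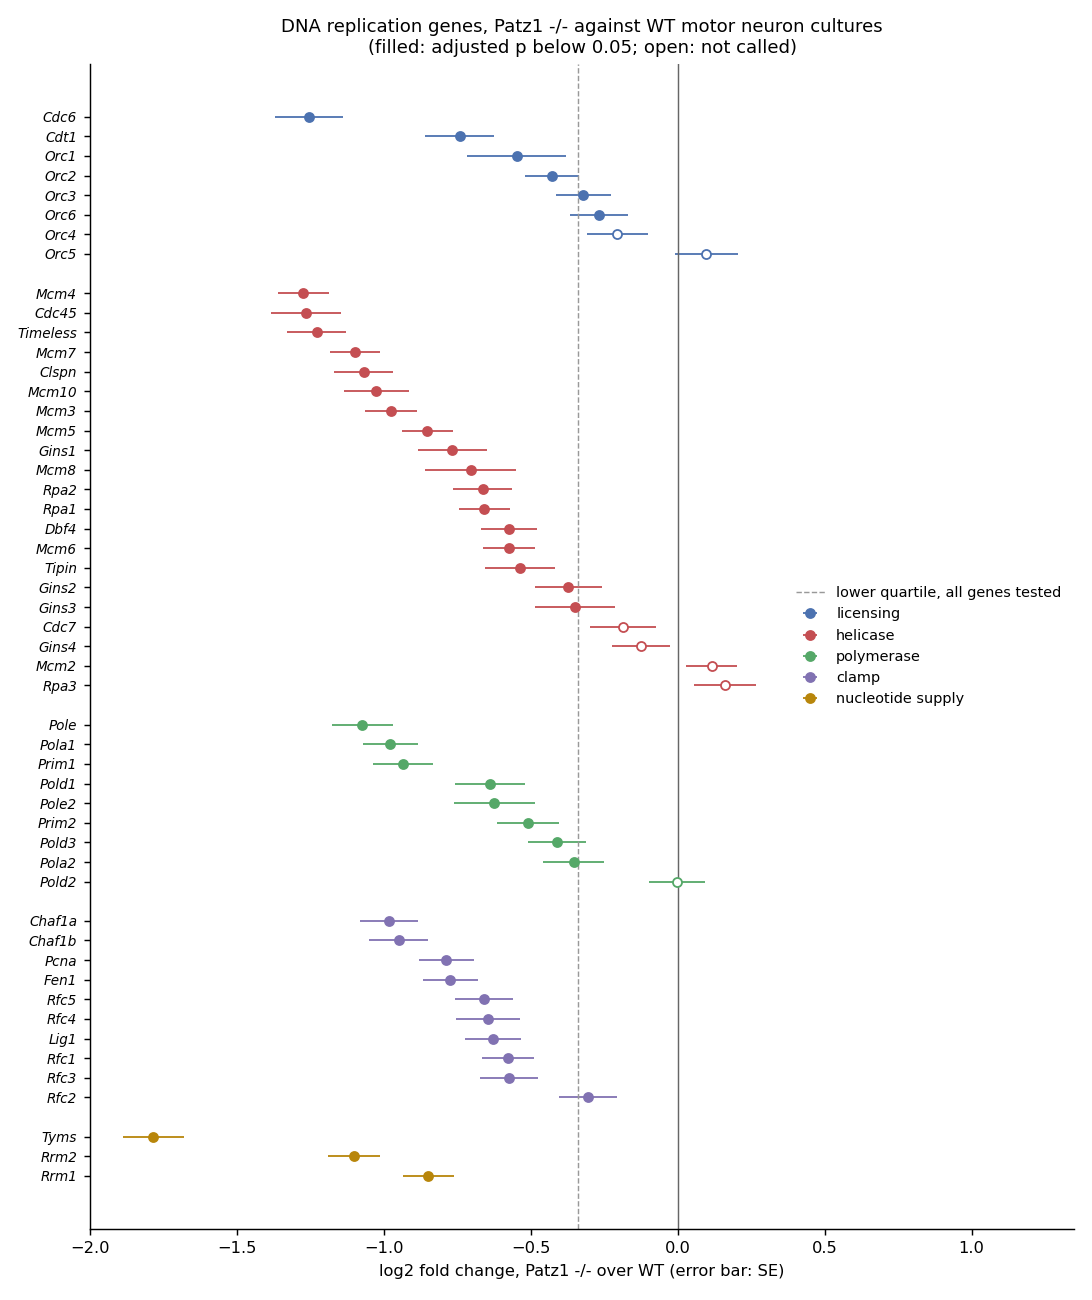
Log2 fold change of KO over WT with its SE (x axis) for each of the 51 members (rows), grouped and coloured by role. Filled points passed the adjusted p threshold of 0.05 and open points did not, and the dashed line at −0.34 is the lower quartile of all genes tested, below which 41 members lie.

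The licensing group moved least, with 6 of 8 genes lower and a median of −0.37. Its summed level fell from 436 and 446 CPM in WT to 326 and 354 CPM in KO. The loading factors Cdc6 and Cdt1, which bring the MCM ring to ORC, fell more than any of the ORC subunits by estimate. Cdc6 was at 36.8 and 33.5 CPM in WT and 14.9 and 14.5 CPM in KO (−1.25, SE 0.116, adjusted p = 1.26e-07). Cdt1, whose activity is limited by geminin, was at 48.5 and 43.5 CPM in WT and 30.6 and 24.0 CPM in KO (−0.74, SE 0.118, adjusted p = 5.41e-05). For both genes the libraries of the groups did not overlap.

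Within ORC, the complex that marks origins, 4 of 6 subunits were lower and the median was −0.29. Orc1, the subunit that is regulated through the cell cycle, was at 10.5 and 12.6 CPM in WT and 7.55 and 8.35 CPM in KO (−0.55, SE 0.168, adjusted p = 0.0122). Orc2 fell by 0.43 on the log2 scale (SE 0.0922, adjusted p = 9.63e-04), from 69.7 and 73.1 CPM to 53.6 and 52.6 CPM. Orc3 and Orc6 fell by 0.32 and 0.27 on the log2 scale (adjusted p = 0.00880 and 0.0345). Orc4 was at 62.0 and 66.2 CPM in WT and 50.7 and 60.8 CPM in KO and did not pass (−0.21, adjusted p = 0.111). Orc5 was the only subunit with a higher estimate in KO, at 28.4 and 29.0 CPM in WT and 29.6 and 31.9 CPM in KO (0.10, SE 0.107, adjusted p = 0.474). The smaller changes were sensitive to the libraries and the test, since Orc1 (adjusted p = 0.226) did not pass without WT replicate 2, nor did Orc1 and Orc6 in DESeq2's Wald test (adjusted p = 0.0772 and 0.113). Orc3 and Orc6 also lost their calls without either WT library, and Orc6 without KO replicate 1, while Orc4 passed without KO replicate 2 (adjusted p = 0.00205). Without WT replicate 2, 3 licensing genes were called.

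The estimates for the subunits of the MCM ring were unequal. Mcm3, Mcm4, Mcm5, Mcm6 and Mcm7 fell, while Mcm2, whose protein sits in the same ring in equal number, did not pass the test and had a higher estimate in KO. Mcm4 fell most of the ring, from 193 and 200 CPM in WT to 80.7 and 82.0 CPM in KO (−1.27, SE 0.0857, adjusted p = 2.26e-09). Mcm7 was at 238 and 233 CPM in WT and 111 and 108 CPM in KO (−1.10, SE 0.0853, adjusted p = 1.48e-08). Mcm3 was at 125 and 118 CPM in WT and 59.7 and 63.9 CPM in KO (−0.97, SE 0.0900, adjusted p = 1.21e-07). Each of these genes was at 41.4% to 50.9% of its WT level, and in each the libraries of a group lay close together. Mcm5 was at 222 and 224 CPM in WT and 129 and 118 CPM in KO (−0.85, SE 0.0874, adjusted p = 4.14e-07), and Mcm6 was at 170 and 186 CPM in WT and 123 and 117 CPM in KO (−0.57, SE 0.0879, adjusted p = 3.84e-05). Mcm2 was at 162 and 160 CPM in WT and 180 and 168 CPM in KO, from counts of 2413, 2542, 4374 and 2820 (0.12, SE 0.0856, adjusted p = 0.280). Both KO libraries thus lay above both WT libraries for Mcm2 and below them for the other subunits.

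The ratio of Mcm2 to the mean of Mcm3 to Mcm7 in CPM was 0.855 and 0.832 in WT against 1.79 and 1.72 in KO, or 0.844 ± 0.0165 against 1.76 ± 0.0509 (SD, n = 2). The ratio in KO was 2.08 times that in WT, and against each subunit alone it was 1.61 times (Mcm6) to 2.62 times (Mcm4). An exact two-sided permutation test over 2 against 2 libraries gave p = 0.333. That is the smallest value this design allows, so the test could not decide whether the ratio differed. Over the alternative settings, Mcm2 stayed between 0.07 and 0.17 and was never called, while the other subunits of the ring were called in every alternative. By GENCODE M21, Mcm2 lies at chr6:88883474-88898780 on the minus strand (GRCm38), with no other annotated exon over its own, and Mcm4 at chr16:15623897-15637400, likewise with no overlap. Exons of Mcm7 share 12.6% of their length with other annotated genes, the microRNAs Mir25 and Mir93 on the same strand and Ap4m1 and Cops6 antisense. Of the printed windows of the ring, those of Mcm3, Mcm5, Mcm6 and Mcm7 hold E2F matches and that of Mcm2 holds none. No promoter was listed for Mcm4, which fell most of the ring. The printed window of Tyms, which had the largest fall of the set, holds no match either. Whether a match bears on these changes was not tested. A second listed start of Mcm7, with its window at chr5:138171217-138171436, has no match and is not printed.

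**Figure D3:**
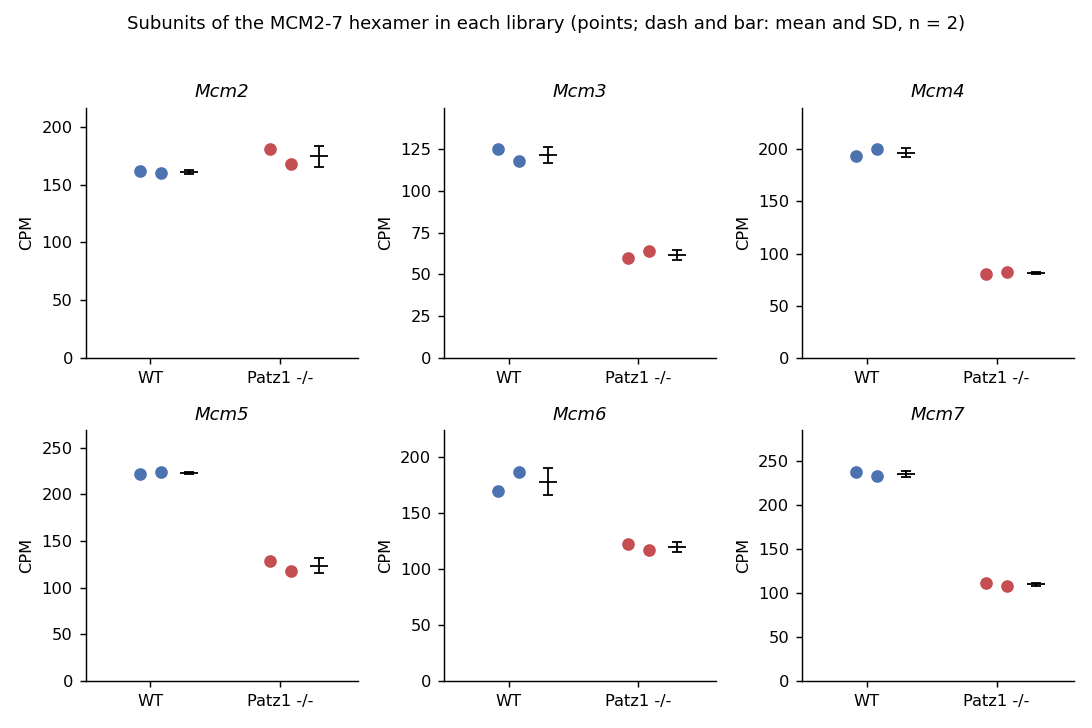
CPM (y axis, from 0) of the 6 subunits of the MCM2-7 ring in each WT and KO library (points), with the mean and SD of each group of 2 libraries (dash and bar). Mcm2 is at 160 to 180 CPM in all 4 libraries, while the KO points of the other subunits all lie below the WT points.

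The remaining helicase genes were mostly lower, and the whole group of 21 counted 17 lower with a median of −0.66. Cdc45, which joins the MCM ring to make the active helicase, fell from 37.3 and 36.6 CPM in WT to 14.1 and 16.9 CPM in KO (−1.26, SE 0.119, adjusted p = 1.58e-07). Its partners of the GINS complex moved unevenly. Gins1 was at 29.2 and 30.1 CPM in WT and 16.3 and 18.7 CPM in KO (−0.77, SE 0.118, adjusted p = 4.09e-05). Gins2 and Gins3 were lower by smaller amounts (−0.37 and −0.35, adjusted p = 0.0125 and 0.0426), and both lost their calls in DESeq2's Wald test (adjusted p = 0.0805 and 0.199) and without either WT library, Gins3 also without KO replicate 1 (adjusted p = 0.0651) and with no filter (adjusted p = 0.0555). Gins4 was at 48.3 and 48.2 CPM in WT and 41.8 and 46.9 CPM in KO and did not pass (−0.13, SE 0.0988, adjusted p = 0.309). Estimates for the subunits of the GINS complex ran from −0.77 to −0.13.

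The genes for fork protection and the fork mediator, 3 in all, were lower. Timeless, of the fork protection complex, was at 59.2 and 57.9 CPM in WT and 26.2 and 23.7 CPM in KO (−1.23, SE 0.101, adjusted p = 2.94e-08). Clspn, the mediator between the fork and the checkpoint kinase Chk1, was at 50.4 and 50.9 CPM in WT and 23.4 and 24.98 CPM in KO (−1.07, SE 0.101, adjusted p = 1.54e-07). They were at 42.7% and 47.7% of WT. Tipin, the partner of Timeless, fell by 0.54 on the log2 scale (adjusted p = 0.00120), and its KO libraries lay apart, at 46.2 and 62.3 CPM against 74.0 and 82.8 CPM in WT. Without 1 or the other KO library its estimate was between −0.76 and −0.33, and it passed in all these fits. Mcm10, an initiation factor outside the ring, was at 39.3 and 38.7 CPM in WT and 20.1 and 18.1 CPM in KO (−1.03, SE 0.110, adjusted p = 7.05e-07). Mcm8, which acts in recombination, fell by 0.70 on the log2 scale (adjusted p = 0.00116).

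The kinase that fires origins and the protein that coats single-stranded DNA were each split. Dbf4, the activating subunit of the kinase, was at 58.7 and 62.5 CPM in WT and 40.3 and 41.1 CPM in KO (−0.57, SE 0.0953, adjusted p = 8.50e-05). Cdc7, its catalytic subunit, was at 33.6 and 35.0 CPM in WT and 32.8 and 27.3 CPM in KO and did not pass (−0.19, adjusted p = 0.185), though it did without KO replicate 1 (−0.33, adjusted p = 0.0108). Of replication protein A, Rpa1 was at 128 and 135 CPM in WT and 86.5 and 80.6 CPM in KO (−0.66, adjusted p = 8.54e-06), and Rpa2 was at 48.7 and 49.4 CPM in WT and 29.6 and 32.5 CPM in KO (−0.66, adjusted p = 3.01e-05). Rpa3, the smallest subunit of that trimer, was at 34.6 and 37.4 CPM in WT and 37.4 and 43.4 CPM in KO (0.16, SE 0.106, adjusted p = 0.221). Its highest WT library and its lowest KO library nearly met, and it passed as higher without KO replicate 1 (0.27, adjusted p = 0.0198).

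Of the 9 polymerase genes 8 were lower, with a median of −0.62, and their sum fell from 416 and 416 CPM in WT to 269 and 264 CPM in KO. Pole, the catalytic subunit of the leading strand polymerase epsilon, fell most, from 57.5 and 57.7 CPM in WT to 29.3 and 25.2 CPM in KO (−1.07, SE 0.103, adjusted p = 1.97e-07). Its second subunit Pole2 fell by 0.62 on the log2 scale (adjusted p = 0.00126). Pola1, the catalytic subunit of polymerase alpha, which starts each new strand, was at 84.1 and 89.9 CPM in WT and 43.1 and 45.4 CPM in KO (−0.98, SE 0.0939, adjusted p = 1.93e-07). Prim1, the catalytic primase subunit, was at 51.5 and 55.5 CPM in WT and 26.6 and 29.6 CPM in KO (−0.93, SE 0.102, adjusted p = 8.83e-07). The catalytic subunits of alpha, primase and epsilon were thus at 47.5% to 52.4% of WT.

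Within each enzyme, the accessory members fell less by estimate than the catalytic subunit, but this did not hold across enzymes. The accessory Pole2 (−0.62) was near the catalytic Pold1 (−0.64, at 64.2% of WT). Pole3, an accessory subunit of epsilon from the further list below (−0.95, adjusted p = 2.92e-06), was near the catalytic Prim1 (−0.93). Prim2 was lower by 0.51 on the log2 scale (adjusted p = 7.46e-04) and Pola2, the regulatory subunit of polymerase alpha, by 0.35 (adjusted p = 0.00976). Pola2 did not pass without WT replicate 1 (adjusted p = 0.145) or in DESeq2's Wald test (adjusted p = 0.0626). Of the lagging strand polymerase delta, the catalytic Pold1 was at 48.3 and 39.9 CPM in WT and 30.9 and 25.5 CPM in KO (−0.64, SE 0.119, adjusted p = 2.55e-04), and Pold3 fell by 0.41 on the log2 scale (adjusted p = 0.00230), a call lost without WT replicate 2 (adjusted p = 0.0676). Pold2 had 42.0 and 41.8 CPM in WT and 41.5 and 42.2 CPM in KO (−0.0023, SE 0.0960, adjusted p = 0.987), and it was the only member whose groups overlapped.

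In the clamp group all 10 genes were lower, with a median of −0.65. Pcna, the sliding clamp that holds polymerases on DNA, was at 243 and 251 CPM in WT and 131 and 155 CPM in KO (−0.79, SE 0.0946, adjusted p = 2.59e-06). Per kb of exon, Pcna had the highest level of the set in WT (103 CPM per kb, against 3.32 for Orc1, the lowest). Chaf1a and Chaf1b, subunits of chromatin assembly factor 1, which places histones behind the fork through Pcna, fell by nearly the same amount. Chaf1a was at 63.0 and 69.1 CPM in WT and 34.1 and 32.7 CPM in KO (−0.98, SE 0.0981, adjusted p = 3.08e-07), and Chaf1b at 52.0 and 47.8 CPM in WT and 25.7 and 25.9 CPM in KO (−0.95, SE 0.101, adjusted p = 6.32e-07). Fen1, the nuclease that trims Okazaki fragments, was at 78.6 and 79.6 CPM in WT and 47.7 and 44.8 CPM in KO (−0.77, SE 0.0930, adjusted p = 2.55e-06). Lig1, the ligase that seals them, was at 76.3 and 78.4 CPM in WT and 52.4 and 47.6 CPM in KO (−0.63, SE 0.0943, adjusted p = 3.02e-05).

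The clamp loader opens Pcna and sets it on DNA, and its 5 subunits were all lower. Rfc5, Rfc4, Rfc1 and Rfc3 fell by 0.66, 0.64, 0.58 and 0.57 on the log2 scale, with adjusted p between 3.09e-05 and 1.36e-04. Rfc1, the largest subunit, was at 109 and 117 CPM in WT and 74.8 and 76.5 CPM in KO. Rfc2 was at 82.4 and 70.8 CPM in WT and 64.1 and 59.6 CPM in KO and moved least (−0.31, SE 0.0988, adjusted p = 0.0163). It was also the least secure of the group, since it lost its call without WT replicate 1 (−0.19, adjusted p = 0.330) and in DESeq2's Wald test (adjusted p = 0.0614).

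The 3 nucleotide supply genes were all lower and had the largest median of the groups by size, −1.10. For Tyms, the thymidylate synthase that makes dTMP from dUMP, 859 and 996 reads were counted in WT and 431 and 287 in KO, or 57.7 and 62.6 CPM against 17.8 and 17.1 CPM. This was the largest fall of the set (−1.78, SE 0.104, adjusted p = 3.71e-10), to 29.0% of WT, in a gene at chr5:30058202-30073617 (minus strand, GRCm38). Its annotated pseudogene Tyms-ps was near 0 throughout, with 8, 6, 2 and 1 counts. Rrm2, the ribonucleotide reductase subunit that accumulates in S phase, was at 182 and 198 CPM in WT and 90.5 and 86.3 CPM in KO (−1.10, SE 0.0880, adjusted p = 2.15e-08). Rrm1, its large partner subunit, was at 259 and 275 CPM in WT and 150 and 147 CPM in KO (−0.85, SE 0.0867, adjusted p = 3.97e-07). The ratio of Rrm2 to Rrm1 in CPM moved from 0.702 and 0.718 to 0.604 and 0.587.

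**Figure D4:**
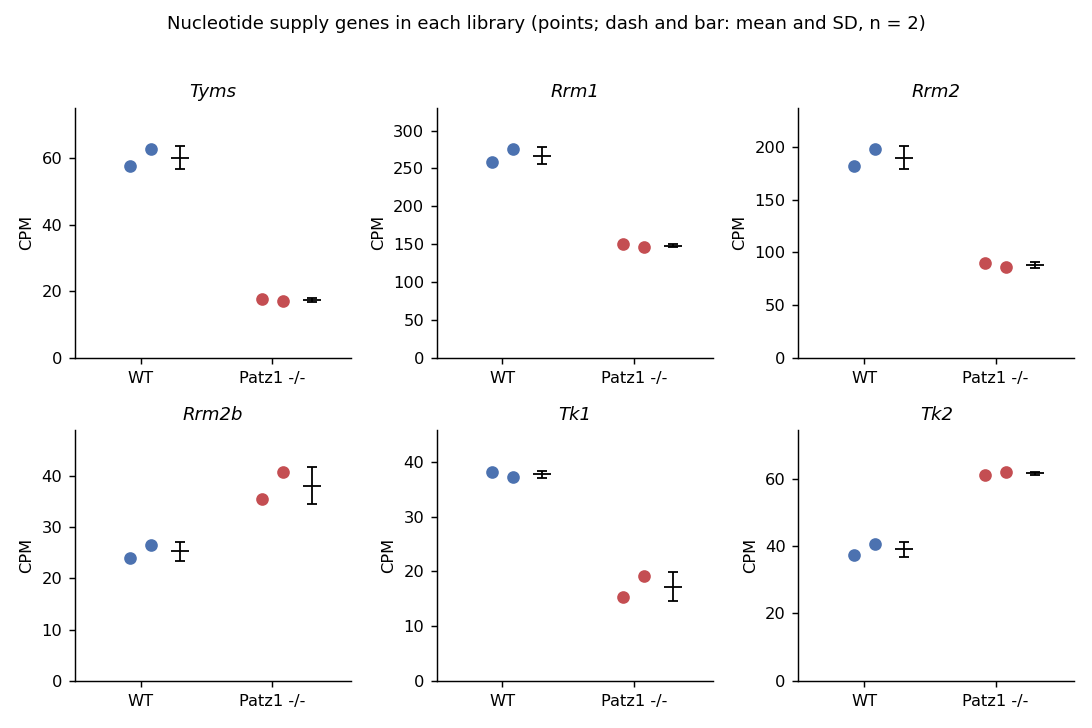
CPM (y axis, from 0) of Tyms, Rrm1 and Rrm2, and of Rrm2b, Tk1 and Tk2 from the list of other replication genes, in each WT and KO library (points), with the mean and SD of each group of 2 libraries (dash and bar). Tyms, Rrm1, Rrm2 and Tk1 are lower in KO, and Rrm2b and Tk2 are higher.

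A further 41 replication genes that are not in the set were read from the same fit. Of these, 29 were lower, 4 were higher and 8 did not pass. Over all genes tested, 23.8% were called lower and 24.1% higher. The median of the 41 was −0.63. The genes with the smallest p were Pclaf, a Pcna-binding protein listed under its older symbol 2810417H13Rik (−1.18, adjusted p = 1.31e-08), Shmt1, which supplies one-carbon units for dTMP synthesis (−1.53, adjusted p = 1.09e-07), Top2a, the topoisomerase that untangles sister chromatids (−0.96, adjusted p = 4.48e-07), and Tk1, the cytosolic thymidine kinase of S phase (−1.14, adjusted p = 6.51e-07). The genes called higher were Pold4 and Pole4, small accessory subunits of polymerases delta and epsilon, Tk2, the mitochondrial thymidine kinase, and Rrm2b, the ribonucleotide reductase subunit used outside S phase. Pold4 was at 3.89 and 4.28 CPM in WT and 7.38 and 8.35 CPM in KO (0.94, SE 0.204, adjusted p = 0.00105), and Pole4 at 43.8 and 42.3 CPM in WT and 57.7 and 65.7 CPM in KO (0.52, SE 0.0997, adjusted p = 3.58e-04).

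Of the 10 nucleotide supply genes in this further list 6 were lower, Tk2 and Rrm2b were higher, and Dck (0.03, adjusted p = 0.816) and Samhd1 (−0.24, adjusted p = 0.143) did not pass. Tk2 was at 37.4 and 40.6 CPM in WT and 61.1 and 62.0 CPM in KO (0.66, SE 0.0966, adjusted p = 2.45e-05), while Tk1 was at 38.1 and 37.3 CPM in WT and 15.3 and 19.1 CPM in KO. Rrm2b was at 24.0 and 26.5 CPM in WT and 35.4 and 40.7 CPM in KO (0.59, SE 0.112, adjusted p = 3.14e-04). The ratio of Rrm2b to Rrm2 in CPM was 0.132 and 0.134 in WT and 0.392 and 0.471 in KO, and that of Tk2 to Tk1 was 0.981 and 1.09 in WT and 3.995 and 3.24 in KO.

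**Figure D5:**
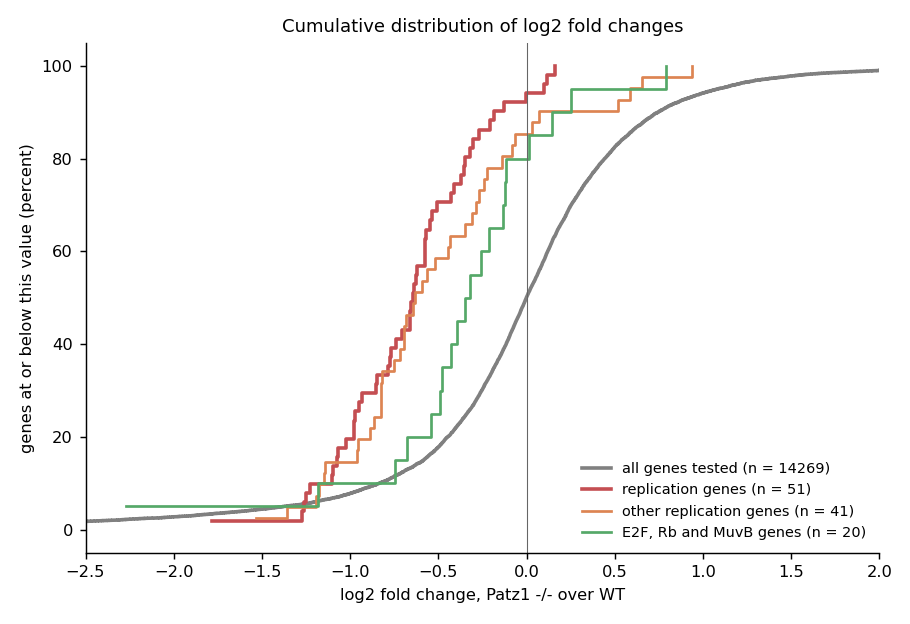
Cumulative percent of genes (y axis) at or below each log2 fold change of KO over WT (x axis) for the 51 replication genes, the 41 other replication genes, the 20 E2F, Rb and MuvB genes and all 14269 genes tested. The medians of the lists are −0.64, −0.63 and −0.34, against −0.0014 for all genes, and the x axis leaves out genes beyond its ends.

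The factors that control replication genes were read in the same way. Of 20 genes of the E2F, Rb and MuvB families, 12 were lower, 2 were higher and 6 did not pass. Over all genes tested, 23.8% were called lower and 24.1% higher. The median of the 20 was −0.34. The genes with the smallest p were E2f8 and E2f7, atypical E2F repressors, and the pocket proteins Rbl2 and Rbl1. E2f8 was at 12.9 and 13.3 CPM in WT and 2.72 and 2.68 CPM in KO (−2.27, SE 0.192, adjusted p = 4.23e-08), and E2f7 was at 13.4 and 14.0 CPM in WT and 6.52 and 5.43 CPM in KO (−1.18, SE 0.168, adjusted p = 1.60e-05). Rbl1 (p107), known from cycling cells, was at 40.8 and 40.8 CPM in WT and 26.4 and 24.4 CPM in KO (−0.68, SE 0.104, adjusted p = 3.61e-05). Rbl2 (p130), known from cells outside the cycle, was at 18.2 and 19.1 CPM in WT and 34.2 and 30.2 CPM in KO (0.79, SE 0.117, adjusted p = 2.57e-05). Rb1 was at 53.7 and 59.0 CPM in WT and 64.8 and 69.3 CPM in KO (0.25, SE 0.0956, adjusted p = 0.0395), a call lost in DESeq2's Wald test (adjusted p = 0.103), with library size alone (adjusted p = 0.0991), without WT replicate 1 (adjusted p = 0.363), without WT replicate 2 (adjusted p = 0.0901) and without KO replicate 2 (adjusted p = 0.0581). Without WT replicate 2, 6 of the 20 genes were called lower.

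Members with and without an E2F match in their listed promoter had nearly equal medians. The 17 with a match had a median log2 fold change of −0.64 and all 17 were called lower. The 26 without a match had a median of −0.66 and 20 of them were called lower. The members that did not pass were Orc4, Orc5, Cdc7, Mcm2, Rpa3 and Pold2 of these 26, and Gins4, for which no promoter was listed. The 26 may hold E2F sites that the searched strings miss. With both strands read, the windows of Chaf1a and Pola2 hold TTTGGCGG, which differs from TTTGGCGC in its last base. The window of Timeless (chr10:128237896-128238115) lies inside its gene, which begins at 128232065. Windows of 38 of the 43 members ended near the start of an annotated transcript. The medians thus compare exact strings only, and whether E2F sites bear on the fall was not tested.

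Markers of dividing cells moved with the replication genes. All 5 (Mki67, Cdk1, Ccnb1, Bub1 and Top2a) were lower, with log2 fold changes of −1.13 to −0.76, and their sum fell from 1369 and 1477 CPM in WT to 738 and 728 CPM in KO, which is 51.5% of WT. The largest parts of this sum were Top2a, at means of 653 CPM in WT and 335 CPM in KO, and Mki67, at 365 and 167 CPM. Top2a is also in the list of other replication genes. The ratio of the summed members to these summed markers was 2.92 and 2.77 in WT and 3.41 and 3.49 in KO. Of 7 neural progenitor markers 3 were lower (Pax6, Nes and Hes5) and 2 higher (Sox1 and Nkx6-1), with a median of −0.20. Sox2 and Olig2 did not pass. The sum of the 7 in KO was 72.3% of WT, and its largest part was Nes, at means of 492 CPM in WT and 298 CPM in KO. Of 8 neuron markers 4 were higher and 1, Snap25, was lower, with a sum at 145% of WT. The largest part of that sum was Tubb3, at means of 1673 CPM in WT and 2421 CPM in KO. Dcx came next, at means of 830 CPM in WT and 1676 CPM in KO, while Map2, Elavl3 and Elavl4 did not pass. Of 7 motor neuron markers 6 were higher, with a sum at 148% of WT. Chat, the enzyme that makes acetylcholine, was at 29.5 and 26.9 CPM in WT and 56.2 and 55.7 CPM in KO, so the labelled cell type was marked in all 4 libraries. The part of these cell types in the fall of the replication genes was not tested.

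Markers of other cells that cultures from ESCs can hold also differed. The sum of 6 endoderm markers was 31.6 and 35.6 CPM in WT and 5.20 and 6.32 CPM in KO, with 4 of them lower. The sum of 7 mesenchyme and neural crest markers was 144 and 162 CPM in WT and 21.5 and 22.8 CPM in KO, with 5 lower and 2 higher (Sox10 and Foxd3). Of 5 pluripotency markers 3 were tested and 1 was lower (Dppa5a, with 12, 18, 8 and 4 counts). The sum of the 5 was 5.32 to 8.30 CPM over the libraries, and Pou5f1 had 7, 7, 4 and 3 counts. Of 4 endothelium and blood markers 3 were tested and 2 were lower. The sums of the 4 were 7.86 and 9.50 CPM in WT and 4.58 and 2.98 CPM in KO, and Ptprc had 0, 1, 2 and 0 counts. Of the glial markers, Gfap had 1, 1, 0 and 0 counts and Aqp4 had 5, 6, 15 and 6 counts. Their part in the result was not tested.

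The members lie on 15 chromosomes. Exons of 18 members overlap another annotated gene, 4 on the same strand and 15 antisense, and in 9 the overlap with all other genes together covers over 10% of the exon length. Because the strand setting of the counting is not given in the sources used here, reads of the overlapping genes could not be told apart and these values are less certain. For Fen1 84.2% of the exon length overlaps, 78.8% with the antisense Gm10143, for which no value is given, and 5.4% with the antisense Tmem258 (−0.27, adjusted p = 0.188). For Gins2 67.3% overlaps, with Gse1 (−0.27, adjusted p = 0.0243), and for Chaf1a 52.5%, with Ubxn6, which was higher in KO (0.41, adjusted p = 0.00375). For Orc2 29.8% overlaps, with Nif3l1, whose change was like that of Orc2 (−0.42, adjusted p = 0.00143). Rfc2, Rfc4, Rfc5 and Orc1 share 10.7% to 15.1% of their exon length with antisense neighbours. That of Rfc5, Wsb2, was higher in KO (0.67, adjusted p = 7.39e-06). Those of Rfc4, Eif4a2 (0.09, adjusted p = 0.445), and of Rfc2, Lat2 (−0.66, adjusted p = 0.157), did not pass. For that of Orc1, Gm12743, no value is given. The subunits of the MCM ring other than Mcm7 have no such overlap.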

How the data were processed

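RNA-seq was analysed from 2 WT and 2 Patz1 KO libraries of cervical MNs, grouped by their labels. The authors mapped reads to mm10 and deposited raw counts per gene symbol. The submitters' processing notes list TopHat2 2.1.1, Bowtie2 2.3.1, featureCounts 1.6.2 and DESeq2, and the annotation and strand setting are not given in the sources used here. The kit was stranded with ribosomal RNA removed, per the labels. All lines name a gene.

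Counts were tested with edgeR 4.0.16 (limma 3.58.1, R 4.3.3) by the quasi-likelihood method after TMM and filterByExpr (minimum count 10), with no covariate and an adjusted p threshold of 0.05. The SE is the absolute log2 fold change over the square root of F. CPM use TMM library sizes, so precision follows depth (14769104 to 23881522 counts). The test and DESeq2 1.42.0 were tested on simulated data. Same-numbered libraries did not deviate together (correlation 0.030), so no block was used. Replicates differed by more than counting noise.

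Named genes were Patz1, all 51 members, the 4 genes with the smallest p in each further list, those called against their list's direction, and markers. Pole3, Dck, Samhd1 and genes that overlap members were named besides. Members and lists were chosen with earlier results of these data known. Positions and exon lengths came from GENCODE M21, and promoters from RefSeq. Pclaf and Primpol were matched by older symbols. Alternatives were other scalings and filters, thinning, DESeq2's Wald test, a replicate block and leaving out each library, which leaves 1 library assumed to vary like the other group. A result for the glial marker list is not reported here.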

Additional observations from a re-analysis of the deposited data

How the results depend on the processing

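The members called lower numbered 38 (DESeq2's Wald test, and without either WT library) to 45, against 44, and the replicate block gave 44 lower and 0 higher, and changed no call of a member. Members called higher were 0 in every alternative other than leaving out 1 library, where they ranged from 0 to 1 (Rpa3, without Patz1 KO replicate 1). Leaving out 1 library gave 3 to 7 licensing genes lower, 6 to 12 E2F, Rb and MuvB genes lower, 1 to 2 of them higher, and 2175 to 3831 genes lower over all genes, with the lowest of each count but the higher calls without WT replicate 2. Higher calls among the E2F, Rb and MuvB genes were 1 with library size alone and 1 with DESeq2's Wald test. The median of the members was −0.67 with library size alone, −0.62 with no filter, −0.66 after thinning to the smallest library, and −0.66 to −0.61 when leaving out 1 library. Pold2 changed sign around 0, at 0.0062 with TMM without the 20 most counted genes, 0.020 with no filter, 0.0084 with DESeq2's Wald test, 0.032 after thinning, and −0.0076 to 0.014 when leaving out 1 library. Where these differ from the values reported, the cause was not tested. With 2 libraries a group, small changes such as those of the ORC and GINS subunits are the least certain.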
